A study of Mus musculus with 6 samples.

Results

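The SLC25 carriers of mouse heart mitochondria were described in hearts with induced recombination of floxed Nelf-b alleles and in control hearts, on Illumina bead arrays. Members were taken by name: every probe whose annotated gene symbol starts with Slc25a, which gave 57 of 25696 probes and 39 of 16593 named genes. A probe counted as detected when its detection p-value was under 0.05 on at least 3 of the 6 arrays. By this rule 34 of the 57 probes and 27 of the 39 genes were detected and tested, and 12 genes were not. The knockout group held 3 female mice of genotype Nelf-b f/f; CreER, in which a Cre recombinase that tamoxifen activates can remove the floxed sequence. The control group held 3 female mice of genotype Nelf-b f/f without CreER. All 6 mice were on a C57BL/6J background, received tamoxifen at 8 weeks of age, were fed regular chow and fasted for 5 hours, and were 20 weeks old when the heart was taken. The sources used here name neither the promoter that drives CreER nor the deleted exons, and an effect of the recombinase itself cannot be told apart from that of the deletion.

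The products of these genes are membrane proteins, most of them in the inner mitochondrial membrane, that exchange or import metabolites across a barrier that is otherwise closed to charged solutes. In heart muscle they export the ATP made by oxidative phosphorylation, bring in phosphate and ADP, deliver acylcarnitines for beta-oxidation, and carry the reducing equivalents of the malate-aspartate shuttle. Other members supply cofactors, nucleotides, glutathione and iron to the matrix, and several have no transported substrate that is given here.

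Signal from Nelfb, the gene targeted by the deletion, was lower on all 3 knockout arrays. Its brighter probe gave 5.41, 5.46 and 5.46 on the log2 scale in knockout hearts, against 7.01, 7.08 and 7.07 in control hearts, a log2 difference of -1.61 ± 0.13 SE (limma, adjusted p = 0.000183). The other Nelfb probe showed a smaller fall, of -0.94 ± 0.14 SE, when each probe was tested singly (limma, adjusted p = 0.00377). The 2 deposited tables name the groups in opposite ways, and groups here follow the sample records: read by the column names of the intensity table instead, every difference below changes sign and Nelfb has a log2 difference of 1.61. Mean signal before normalization was between 208.0 and 259.9 on knockout arrays and between 169.8 and 310.3 on control arrays. Between 38.8% and 40.3% of probes were detected on knockout arrays and between 40.3% and 43.8% on control arrays. Control array 1 stood apart on the second principal component, which held 18.2% of the variance, at -18.71 against -1.64 to 8.55 for the other arrays. Cardiomyocyte markers gave summed linear signals of 81109 to 90309 in knockout hearts and 82941 to 88821 in control hearts over the 6 genes tested. Myh6, Myl2, Myl3 and Actc1, near the top of the scale, carried this sum, and Tnni3, the cardiac troponin I gene, was at -1.05 with overlapping groups and no call (adjusted p = 0.0948). Ryr2 was not detected and Tnnt2 has no named probe in the annotation used. The labels do not say whether the 3 samples of a group came from separate litters or days, so p-values measure the spread between these samples only.

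Among the SLC25 genes, Slc25a34 and Slc25a39 fell in knockout hearts and none rose (limma, Benjamini-Hochberg adjusted over all 7579 genes tested, called below 0.05). That is 2 of 27, or 7.41%, beside 4.25% of all genes tested. In the lower direction alone 2.01% of all genes were called, and in the higher direction 2.24%. At an unadjusted p under 0.05 stood 8 SLC25 genes, 4 higher and 4 lower, or 29.6%, beside 20.4% of all genes. Groups did not overlap for 9 SLC25 genes, 4 higher and 5 lower in knockout hearts, or 33.3%, beside 24.9% of all genes (13.5% higher and 11.4% lower). Differences were positive for 11 SLC25 genes and negative for 16, with a median of -0.07 on the log2 scale, beside 0.01 over all genes tested. Absolute differences under 0.3 were found for 17 of the 27, or 63.0%, beside 73.1% of all genes. The arrays within a group varied about as much for these genes as for others: the median within-group SD was 0.17 on the log2 scale, beside 0.19 over all genes tested, and single SLC25 genes ran from 0.099 to 0.37.

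**Figure D1:**
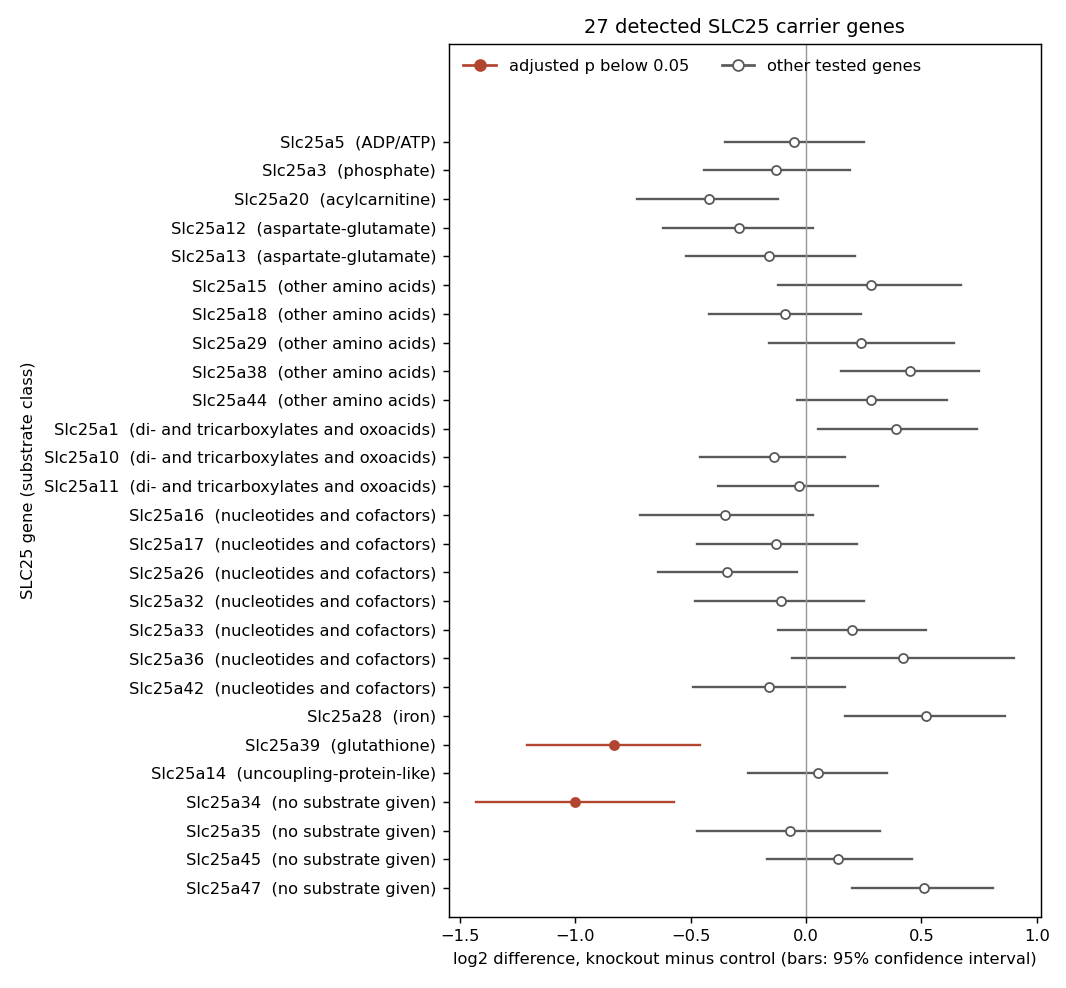
Log2 difference, knockout minus control, of each of the 27 tested SLC25 genes (x axis), ordered by substrate class (y axis). Points are limma estimates and bars are 95% confidence intervals over 3 knockout and 3 control arrays; Slc25a34 at -1.0 and Slc25a39 at -0.83 are the 2 filled points, and the other estimates lie between -0.42 and 0.52.

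The annotated upstream sequences of the 2 called genes are shown beside those of the 2 SLC25 genes with the largest positive differences, Slc25a28 and Slc25a47. Each is the 250 bases before the start that RefSeq annotates on GRCm38.p6, written 5′ to 3′ on the strand of the gene. Capitals mark the nuclear receptor half-site AGGTCA, read on both strands, so that TGACCT is the same site on the other strand.
Slc25a34, chr4:141623835-141624084, minus strand: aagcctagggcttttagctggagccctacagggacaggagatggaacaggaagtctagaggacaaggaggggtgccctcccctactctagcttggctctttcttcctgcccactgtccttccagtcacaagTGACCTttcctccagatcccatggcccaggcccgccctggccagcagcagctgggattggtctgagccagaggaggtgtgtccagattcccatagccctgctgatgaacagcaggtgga
Slc25a39, chr11:102407518-102407767, minus strand: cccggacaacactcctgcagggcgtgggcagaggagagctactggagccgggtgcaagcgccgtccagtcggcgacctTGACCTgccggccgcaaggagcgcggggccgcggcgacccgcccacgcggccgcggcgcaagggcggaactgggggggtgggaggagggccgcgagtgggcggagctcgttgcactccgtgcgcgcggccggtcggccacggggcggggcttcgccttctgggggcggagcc
Slc25a47, chr12:108850879-108851128, plus strand: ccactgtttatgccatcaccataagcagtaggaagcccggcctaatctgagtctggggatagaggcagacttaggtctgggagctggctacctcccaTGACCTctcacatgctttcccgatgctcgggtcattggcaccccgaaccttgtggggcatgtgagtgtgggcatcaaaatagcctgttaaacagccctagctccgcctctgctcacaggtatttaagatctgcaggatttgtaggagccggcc
Slc25a28, chr19:43674882-43675131, minus strand: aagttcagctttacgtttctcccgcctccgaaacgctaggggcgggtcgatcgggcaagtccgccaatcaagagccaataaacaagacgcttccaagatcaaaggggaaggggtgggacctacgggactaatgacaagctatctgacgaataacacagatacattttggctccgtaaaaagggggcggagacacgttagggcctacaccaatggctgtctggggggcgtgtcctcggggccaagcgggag

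Slc25a34, Slc25a39 and Slc25a47 each held 1 half-site, at 119, 172 and 153 bases before the start, and Slc25a28 held 0. This hexamer was found upstream of 4 of the 23 tested SLC25 genes with a promoter entry, the other being Slc25a45. Counted over promoters, it was in 15.4% of the 26 entries of these genes and in 14.0% of all 32851 entries of the same length. The GC box GGGCGG, on either strand, was upstream of 16 of the 23 genes, in 69.2% of their entries and in 32.7% of all entries. The upstream sequence of Slc25a39 held 5 of them and was 77.2% G and C, against 58.4% for Slc25a34, 54.4% for Slc25a47 and 55.6% for Slc25a28. The CCAAT box (CCAAT) was in 42.3% of the SLC25 entries and 33.8% of all entries, and the TATA box (TATAAA) in 3.85% and 12.4%, with Slc25a18 the 1 SLC25 gene that held it. The SLC25 entries belong to detected genes only, while all entries include genes that were not tested here, so these shares compare unlike sets. These matches describe letters in the window and show no binding. All 4 entries start inside the annotated span of their gene, downstream of its outermost start, so each window overlaps that span in part or whole.

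Slc25a34 lies on chromosome 4 (141618819 to 141623891, GRCm38.p6) and encodes a carrier whose substrate is not given here. Its signal was 7.74, 7.53 and 8.16 on the log2 scale in knockout hearts, against 8.95, 8.46 and 9.02 in control hearts. All 3 knockout values lay below every control value. The difference of -1.0 ± 0.20 SE was a 2-fold fall (limma, adjusted p = 0.0197), with a 95% confidence interval of -1.43 to -0.57. A dimmer probe for the same gene, detected on 1 knockout and 3 control arrays, gave 5.11, 4.47 and 4.64 in knockout hearts, against 4.78, 4.91 and 4.92 in control hearts. Its groups overlapped, with a difference of -0.13 ± 0.17 SE in the fit of single probes, in which 3.81% of the 9827 named probes were called. The call for the brighter probe held there (adjusted p = 0.0176), and the lowest detected signal averaged 4.62 over the arrays. With the mean of both probes the difference was -0.56 (adjusted p = 0.0670), which is above the threshold. The call was also lost with median scaling (0.113) and with no detection filter (0.0876). It was lost as well without knockout replicate 1 (0.0563), knockout replicate 2 (0.0741) or control replicate 3 (0.0942). With median scaling the difference itself stayed at -1.0, with an SE of 0.31 that every SLC25 gene shared in that setting.

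The summed signal of adipocyte markers was lower as well, but Cidea carried most of that sum, and the other detected markers did not fall. The summed linear signal of the 3 detected adipocyte markers was 239 to 304 in knockout hearts and 358 to 399 in control hearts, and these ranges did not overlap. Of the 3, Cidea, which encodes a lipid droplet protein of brown fat, fell (-0.65, adjusted p = 0.0448). Lep was at 0.36, higher on every knockout array than on any control array, and Adipoq was at 0.07 with overlap, neither called. Ucp1, Plin1 and Fabp4, the other markers of this list, were not detected. In whole heart, fewer cells of a type and less RNA per cell cannot be told apart, and the part of these cells in the Slc25a34 result was not tested. The smooth muscle and pericyte sum was also lower, at 1681 to 2319 in knockout hearts against 2865 to 3641 in control hearts. In that list Acta2, which carried most of the sum, fell (-0.84, adjusted p = 0.0299). Positive differences were found for 3 of the 5 tested genes, and the median was 0.01. The endothelial, fibroblast, macrophage, erythroid, atrial and skeletal muscle sums overlapped between groups. The atrial sum was uneven among knockout hearts, at 4549, 19416 and 6423, against 4889 to 7227 in control hearts. Its gene Myl4 had 10.23, 5.75 and 5.95 in knockout hearts, against 5.86, 5.71 and 5.77 in control hearts. Nppa had 11.71, 14.24 and 12.64 in knockout hearts. The part of atrial tissue in the SLC25 results was not tested.

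Slc25a39, on chromosome 11 (102402969 to 102408675), encodes a carrier needed for glutathione import into mitochondria. It had 6.78, 7.0 and 7.15 in knockout hearts, against 7.49, 8.04 and 7.89 in control hearts, again with no overlap. The difference was -0.83 ± 0.17 SE (adjusted p = 0.0240), a 1.78-fold fall with a 95% confidence interval of -1.21 to -0.46, from 1 probe. Slc25a40, its close relative in the same substrate class, was not detected by any of its 3 probes. The size of the Slc25a39 difference changed with the processing: it was -0.54 without background correction and -0.56 on the authors' own normalized values, both called. The call was lost with median scaling (adjusted p = 0.327) and with no detection filter (0.0787). It was lost as well without knockout replicate 1 (0.0715), knockout replicate 2 (0.0699), control replicate 2 (0.0709) or control replicate 3 (0.101). With median scaling Slc25a39 was at -0.85, again with the shared SE of 0.31. Without control array 1 it had -0.99 (adjusted p = 0.0137), and Slc25a34 had -0.93 (0.0494).

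**Figure D2:**
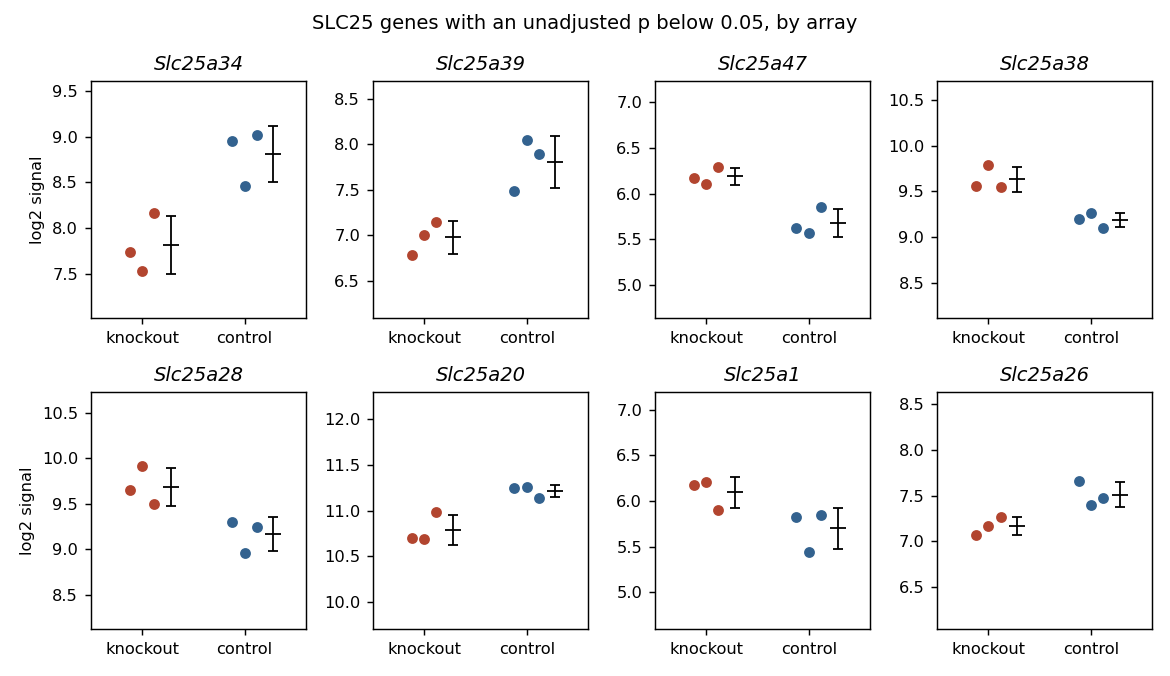
Log2 signal (y axis) of the 8 SLC25 genes with an unadjusted p under 0.05, by group (x axis), 1 panel per gene. Each point is 1 array, the bar beside each group is its mean ± SD (n = 3), and every panel spans the same log2 range; Slc25a34, Slc25a39, Slc25a20 and Slc25a26 are lower and Slc25a47, Slc25a38, Slc25a28 and Slc25a1 higher on all 3 knockout arrays than on any control array.

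The carriers of ADP, ATP and phosphate held no call, and their groups overlapped. Slc25a5, an ADP/ATP carrier of many tissues on the X chromosome, had 11.92, 11.72 and 11.69 in knockout hearts, against 11.90, 11.85 and 11.73 in control hearts. The groups overlapped and the difference was -0.05 ± 0.14 SE (adjusted p = 0.880), with an interval from -0.35 to 0.25. Slc25a4, the isoform typical of heart, has no named probe in the annotation used and was not analysed here, and Slc25a31, the testis isoform, was not detected by either of its probes. Slc25a3, the phosphate carrier, had 11.99, 11.75 and 11.99 in knockout hearts, against 11.87, 12.14 and 12.09 in control hearts, which overlapped. Its difference was -0.13 ± 0.14 SE (adjusted p = 0.676), with an interval from -0.44 to 0.19. A second Slc25a3 probe, annotated to the same transcript accession, was at 0.21 ± 0.15 SE and not called either. These intervals leave room for a fall of up to 0.35 on the log2 scale in Slc25a5 and 0.44 in Slc25a3.

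Of the ATP-Mg/phosphate carriers, Slc25a24 was not detected by any of its 3 probes, nor were Slc25a25 and Slc25a41 detected. The proteins that work with the ADP/ATP carriers, of which 5 of 6 genes were tested, held 0 calls (limma), beside 4.25% of all genes. At an unadjusted p under 0.05 stood 1 gene, beside 20.4% of all genes, and the median of these 5 genes was -0.14. One of them, the outer membrane pore gene Vdac1, stood apart from its controls without overlap (-0.37, adjusted p = 0.158). The mitochondrial creatine kinase gene Ckmt2 was at 0.00 and the cyclophilin gene Ppif at 0.11.

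Slc25a20, the carnitine-acylcarnitine carrier that brings fatty acids into the matrix for oxidation, was lower on every knockout array but was not called. It had 10.70, 10.69 and 10.98 in knockout hearts, against 11.25, 11.26 and 11.14 in control hearts, without overlap. The difference was -0.42 ± 0.14 SE (adjusted p = 0.120), with an interval from -0.73 to -0.12. It was called in 4 settings: on intensities left without background correction (-0.41, adjusted p = 0.0253), on the authors' own normalized values (-0.38, 0.0208), after raising the offset to 50 (-0.42, 0.0335) and under a trended and robust variance prior (-0.42, 0.0177). Its second detected probe was at -0.14 ± 0.16 SE with overlapping groups, and its remaining probe was not detected on any array.

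The tested enzymes that make and use acylcarnitines, and an importer of carnitine, lay on the same side. Of 7 genes of the carnitine system, 4 were tested, 2 of these fell, beside 2.01% of all genes called lower, and all 4 were lower on every knockout array than on any control array, as were 11.4% of all genes. Cpt1b, which forms acylcarnitines at the outer membrane of muscle mitochondria, had 10.82, 10.76 and 10.66 in knockout hearts, against 11.09, 11.60 and 11.72 in control hearts, a called difference of -0.72 (adjusted p = 0.0422). The carnitine acetyltransferase gene Crat fell as well (-0.59, adjusted p = 0.0498), close to the threshold. Neither gene was followed through the alternative settings. Cpt2, which turns acylcarnitines back into acyl-CoA in the matrix, had 10.23, 10.32 and 10.36 in knockout hearts, against 10.95, 10.74 and 10.73 in control hearts, and was not called (-0.50, adjusted p = 0.0632). Slc22a5, the carnitine importer of the plasma membrane, had 6.89, 6.89 and 6.97 in knockout hearts, against 7.39, 7.12 and 7.46 in control hearts (-0.41, adjusted p = 0.132). The list has a median of -0.55, beside -0.07 for the SLC25 genes and 0.01 for all genes. Cpt1a, Cpt1c and Crot were not detected.

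**Figure D3:**
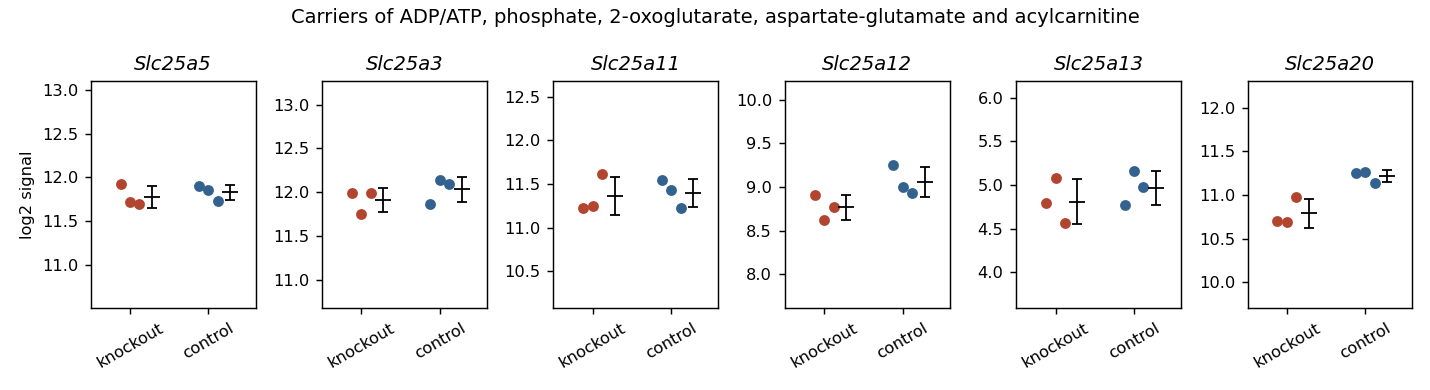
Log2 signal (y axis) by group (x axis) for the carriers of ADP/ATP (Slc25a5), phosphate (Slc25a3), 2-oxoglutarate (Slc25a11), aspartate-glutamate (Slc25a12 and Slc25a13) and acylcarnitine (Slc25a20). Points are arrays and bars are means ± SD (n = 3 per group); the groups overlap for Slc25a5, Slc25a3, Slc25a11 and Slc25a13 and do not for Slc25a12 and Slc25a20.

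The membrane carriers of the malate-aspartate shuttle, which moves reducing equivalents from cytosolic NADH into the matrix, held no call. Slc25a12, the aspartate-glutamate carrier aralar of heart and brain, had 8.91, 8.62 and 8.77 in knockout hearts, against 9.25, 9.0 and 8.93 in control hearts. These values did not overlap, by a narrow gap, and the difference was -0.29 ± 0.15 SE (adjusted p = 0.287). Slc25a13, the paralog citrin, had 4.79, 5.08 and 4.56 in knockout hearts, against 4.77, 5.16 and 4.98 in control hearts, close to the lowest detected signal, and was at -0.16 ± 0.17 SE. Slc25a11, which exchanges 2-oxoglutarate for malate, had 11.22, 11.25 and 11.61 in knockout hearts, against 11.54, 11.43 and 11.22 in control hearts, with full overlap (-0.03 ± 0.16 SE, adjusted p = 0.926). Its sign turned with median scaling (0.03), and its other 2 detected probes were at -0.33 ± 0.19 SE and -0.27 ± 0.20 SE.

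Among the shuttle enzymes, 6 of 7 were tested and 1 of them was called, a single gene, beside 2.24% of all genes called higher. Gpd1, the cytosolic glycerol-3-phosphate dehydrogenase of the parallel glycerol phosphate shuttle, rose: it had 6.16, 6.47 and 6.62 in knockout hearts, against 5.43, 5.52 and 5.43 in control hearts. That is a 1.94-fold rise, or 0.95 on the log2 scale (adjusted p = 0.00598). Its mitochondrial partner gene Gpd2 was at -0.29 (adjusted p = 0.272), with groups that did not overlap. The 4 transaminase and malate dehydrogenase genes Got1, Mdh2, Mdh1 and Got2 had differences of -0.70, -0.61, -0.33 and -0.18, none called, and Got1 was nearest the threshold (adjusted p = 0.0518). The median of the 6 was -0.31.

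Other carriers of di- and tricarboxylates were not called. Slc25a1, which exports citrate for fatty acid synthesis, had 6.17, 6.21 and 5.90 in knockout hearts, against 5.82, 5.44 and 5.84 in control hearts. The highest control value, 5.84, lay just under the lowest knockout value, and the difference was 0.39 ± 0.16 SE (adjusted p = 0.191). Slc25a10, the dicarboxylate carrier, was at -0.14 with overlap, and Slc25a21, the oxodicarboxylate carrier, was not detected.

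Carriers of other amino acids were mostly on the positive side, with 4 of 5 differences above 0 and a median of 0.28. They held 0 calls, beside 4.25% of all genes, and 1 was at an unadjusted p under 0.05, beside 20.4%. Slc25a38, which imports glycine for heme synthesis, had 9.56, 9.79 and 9.55 in knockout hearts, against 9.20, 9.26 and 9.10 in control hearts. Its groups did not overlap and the difference was 0.45 ± 0.14 SE (adjusted p = 0.0928). The 3 probes of this gene, all annotated to 1 transcript accession, went opposite ways. The second probe was at 0.46 ± 0.18 SE, while the dimmest had 5.61, 5.84 and 5.03 in knockout hearts, against 5.85, 5.93 and 6.24 in control hearts, a difference of -0.51 ± 0.20 SE with no overlap. With the mean of the 3 probes the difference was 0.13 (adjusted p = 0.623). The branched-chain amino acid carrier Slc25a44 and the ornithine carrier Slc25a15 were both at 0.28, the basic amino acid carrier Slc25a29 at 0.24 and the glutamate carrier Slc25a18 at -0.09, and the groups overlapped for all 4. Without knockout replicate 1 the Slc25a29 difference was 0.03, and without control replicate 3 that of Slc25a15 was 0.10. Slc25a22, the other glutamate carrier, was not detected.

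**Figure D4:**
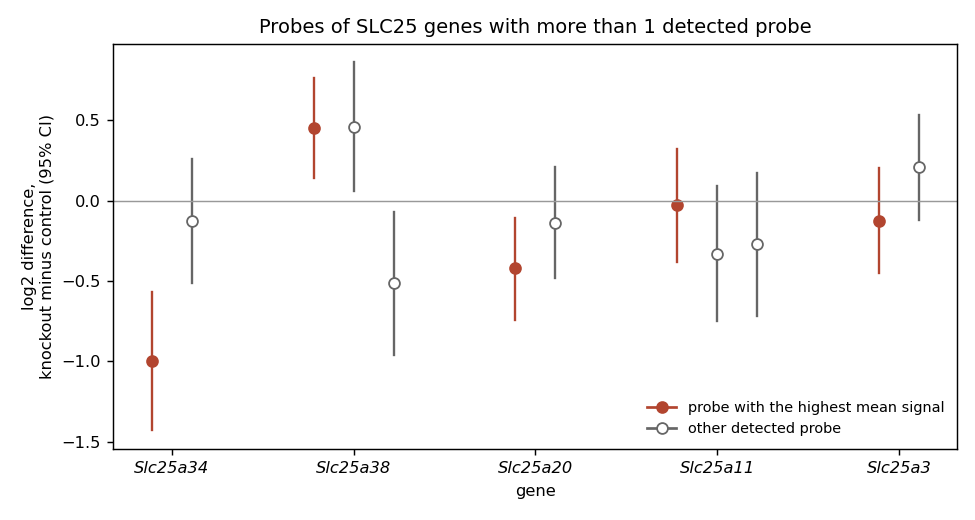
Log2 difference, knockout minus control (y axis), of each detected probe of the 5 SLC25 genes with more than 1 detected probe (x axis), with 95% confidence intervals from the fit of single probes. Filled points are the probe that stood for its gene; probes of Slc25a38 and Slc25a3 have estimates on both sides of 0, and the second Slc25a34 probe lies at -0.13 beside -1.0 for the first.

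Slc25a28, or mitoferrin-2, which carries iron into mitochondria, had the largest positive difference among the SLC25 genes. It had 9.65, 9.91 and 9.50 in knockout hearts, against 9.30, 8.96 and 9.25 in control hearts, without overlap. The difference of 0.52 ± 0.16 SE was not called (adjusted p = 0.0949). Like Slc25a20 and Slc25a38, it passed the threshold in those same 4 settings, at adjusted p-values of 0.0137 to 0.0418 for Slc25a28 and 0.0185 to 0.0239 for Slc25a38. Slc25a37, the mitoferrin of erythroid cells, has no named probe in the annotation used. Beside the iron and glycine carriers, erythroid markers varied widely without separating the groups: the sum of Hba-a1 and Alas2 was 16538, 5918 and 10940 in knockout hearts and 7019, 10093 and 1564 in control hearts.

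Carriers of nucleotides and cofactors went both ways, with 2 positive and 5 negative differences and a median of -0.13. They held 0 calls, beside 4.25% of all genes, and 1 was at an unadjusted p under 0.05, beside 20.4%. Slc25a26, which brings S-adenosylmethionine into mitochondria, had 7.07, 7.17 and 7.26 in knockout hearts, against 7.66, 7.40 and 7.47 in control hearts. The groups did not overlap, and the difference was -0.34 ± 0.14 SE (adjusted p = 0.195). The other 6 had overlapping groups. Slc25a16 was at -0.35, the coenzyme A carrier Slc25a42 at -0.16, the peroxisomal carrier Slc25a17 at -0.13 and Slc25a32, needed for mitochondrial folate, at -0.11. The pyrimidine nucleotide carriers Slc25a36 and Slc25a33 were at 0.42 and 0.20. Slc25a36 was uneven among knockout hearts, with 4.63, 5.60 and 5.09, against 4.68, 4.87 and 4.49 in control hearts. The control values lay close to the lowest detected signal, and the probe was detected on 2 of the 3 control arrays. Without background correction the Slc25a36 difference was 0.12.

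Among carriers with no substrate given here, Slc25a47, on chromosome 12 (108849833 to 108856815) and best known from liver, stood nearest to a call on the positive side. It had 6.17, 6.11 and 6.29 in knockout hearts, against 5.62, 5.57 and 5.85 in control hearts, without overlap, and the difference was 0.51 ± 0.14 SE (adjusted p = 0.0662). The difference shrank to 0.20 without background correction and 0.27 on the authors' own normalized values. Slc25a45 was at 0.14 and Slc25a35 at -0.07, both with overlap. Slc25a48 and Slc25a53 were not detected, nor was Slc25a46, a member of the outer membrane. Of the uncoupling-protein-like genes, Slc25a14 was at 0.05, and Slc25a27 and Slc25a30 were not detected.

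Members of the family under other symbols were measured in the same fit, and 0 of 3 were called (2 at an unadjusted p under 0.05, beside 20.4% of all genes). Ucp3, the uncoupling protein of muscle, had 4.45, 5.04 and 4.68 in knockout hearts, against 5.46, 5.15 and 5.81 in control hearts. These did not overlap, and the difference was -0.75 (adjusted p = 0.0588). The knockout values lay close to the lowest detected signal, and the probe was detected on 2 of the 3 knockout arrays. Mtch1, of the outer membrane, had 12, 11.80 and 11.78 in knockout hearts, against 11.61, 11.34 and 11.35 in control hearts (0.43, adjusted p = 0.123), also without overlap, and its paralog Mtch2 was at -0.12. Of inner membrane transport genes outside the family, 8 of 18 were tested, 0 were called (3 at an unadjusted p under 0.05, beside the same 20.4%), and the median was -0.19. The transporter gene Abcb8 was at -0.50 (adjusted p = 0.0557), its relative Abcb10 at 0.41 and Micu2, a regulator of the calcium uniporter, at -0.46.

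**Figure D5:**
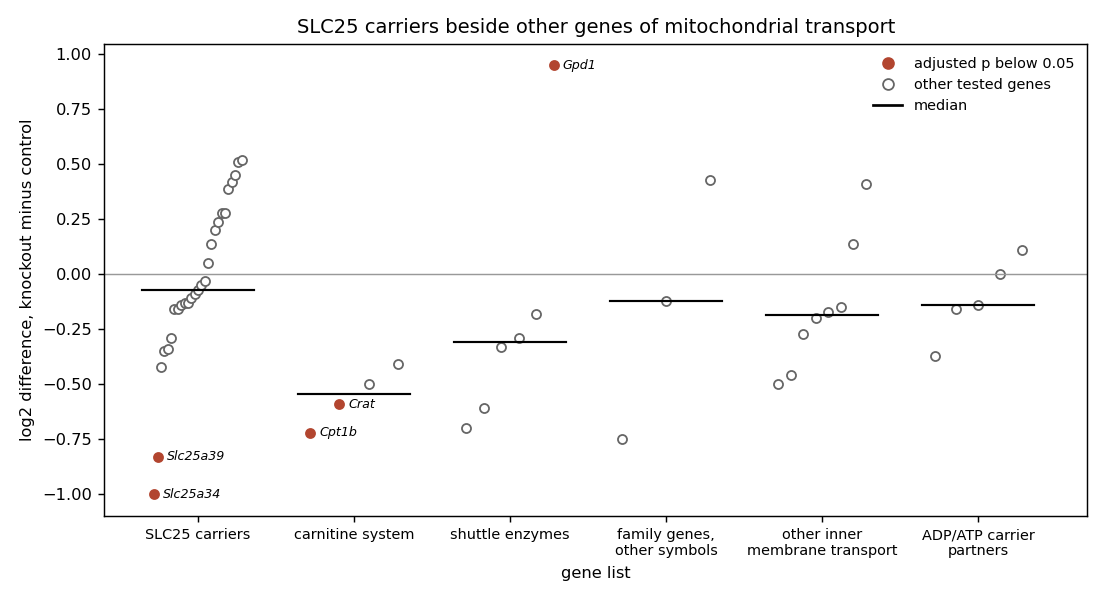
Log2 difference, knockout minus control (y axis), of each tested gene in the SLC25 family and in 5 other lists of mitochondrial transport (x axis). Points are genes, filled where the adjusted p was below 0.05, and lines are medians; the medians are -0.07 for the SLC25 genes and -0.55 for the carnitine system, and the called genes are Slc25a34, Slc25a39, Cpt1b, Crat and Gpd1.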

How the data were processed

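Heart RNA of 3 knockout and 3 control mice was measured, 1 array per mouse. The authors deposited intensity values that were not normalized, each paired with a detection p-value per the file headers, and a value table of normalized intensity. How the values were normalized is not stated in these sources, and GenomeStudio is the tool that the submitters' processing notes list. The 2 tables exchange the group names: each array of the first table ranks its probes exactly as 1 value column does (Spearman rho 1 over all probes; at most 0.854 for other pairs), and groups follow the sample records. This was decided after the tables were seen.

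The neqc function (limma 3.58.1, R 4.3.3, offset 16) gave background-corrected, quantile-normalized log2 signal from the deposited intensities. One gene symbol was annotated for 23977 of 25696 probes and none for the other 1719. Detection on at least 3 arrays left 10407 probes, 9827 of them named, and each gene was read from its brightest probe by mean, giving 7579 genes. Knockout was tested against control with limma (lmFit, eBayes, 2-sided, Benjamini-Hochberg over all genes, 0.05). Errors of differences are moderated standard errors. The test was checked on simulated data, and alternatives changed the background correction, scaling, offset, detection filter, variance prior, choice of probe, replicate block and each array in turn. An exact permutation test of 3 against 3 cannot go below 0.1, and the number of arrays limits the precision. Probe levels are not compared between genes. The members, the lists and the rule for values by array (called, unadjusted p under 0.05, or a carrier of the main cardiac substrates) were chosen with earlier results of these data known, and the promoter motifs were chosen with the sequences in view. Promoters are RefSeq entries on GRCm38.p6, and 23 of the 27 tested genes matched. Figures were drawn with matplotlib 3.10.9.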

Additional observations from a re-analysis of the deposited data

How the results depend on the processing

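Over 16 alternatives the differences of single SLC25 genes kept their direction and their side of the threshold in 390 cases, crossed it to a call in 12 and lost a call in 12, all in the same direction, and changed sign in 13 cases, each for a gene that was not called. Sign changes outside the omission of an array were those of Slc25a11 (0.03) and Slc25a5 (0.00) with median scaling and of Slc25a3 (0.04) with the mean of the detected probes. With 1 array left out, and the rest normalized again, Slc25a11 ran from -0.15 to 0.04, Slc25a14 from -0.01 to 0.11, Slc25a18 from -0.14 to 0.02, Slc25a32 from -0.22 to 0.02 and Slc25a35 from -0.25 to 0.05. The cause was not tested.

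SLC25 genes called lower numbered 2, against 3 without background correction, on the authors' normalized values, at offset 50 and under a trended and robust prior, 0 with median scaling or no detection filter, 1 with the mean of the detected probes, and 0 to 2 with 1 array left out. Those called higher numbered 2 in the same 4 settings with 3 lower calls, and 0 with any array left out. All called genes numbered 322, against 554 without background correction, 589 on the authors' values, 54 with median scaling, 558 at offset 50, 142 when undetected genes stayed in (16593 tested), 645 with the trended and robust prior and 97 to 386 with 1 array left out. The median SLC25 difference of -0.07 moved to -0.03 without background correction, to -0.04 on the authors' values and at offset 50, to -0.10 over single probes, and ran from -0.11 to 0.02 with 1 array left out. It was 0.02 without knockout replicate 3. Nelfb stayed called in every setting. Other genes outside the SLC25 family, Cpt1b, Crat, Gpd1, Cidea and Acta2 among them, were not followed singly through the settings. With median scaling 61.1% of all calls were higher, against 52.8%, and without control replicate 1, 42.0%. The fit after median scaling gave Nelfb and every SLC25 gene the same SE of 0.31, so lost calls there need not mean smaller differences.

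Replicate numbers are not known to pair the mice: deviations of same-numbered arrays correlated at -0.053, 0.000 and -0.062. With the replicate number as a block 171 genes were called, Slc25a34 (adjusted p = 0.0144) and Slc25a39 (0.0285) among them. Of the 27 SLC25 genes, 7 lay within 1 log2 unit of the lowest detected signal.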
